A study of Mus musculus with 12 samples.

Results

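The genes of type IV collagen, *Col4a1* to *Col4a6*, were followed across 12 RNA-seq samples of immortalized mouse embryonic palatal mesenchyme (iMEPM) cells. They were taken by gene symbol, and all 6 were found among 51490 genes. They were chosen by a measured value, since *Col4a6* had one of the largest log2 fold changes between shSrsf3 and scramble cells, so that the difference between those cells is given below as a description, without a test. What that choice did not use, and what was therefore tested, is the response to ligand.

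The iMEPM cells derive from a male embryo lacking *Cdkn2a*, a deletion that all samples share. Lentiviral transduction gave 1 cell line with a scramble shRNA (scramble) and 1 with an shRNA against *Srsf3* (shSrsf3), which encodes a serine/arginine-rich splicing factor, and cells with the strongest GFP signal were sorted. Each line was left unstimulated (-PDGF-AA) or received 10 ng/mL PDGF-AA, a ligand of the receptor PDGFRα, for 1 hr (+PDGF-AA), with 3 biological replicates in each of the 4 groups. Because each shRNA is represented by 1 line, the effect of *Srsf3* knockdown and a difference between the lines cannot be told apart.

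Levels are given in CPM, the deposited expected counts scaled to a common library size. Column totals ranged from 30958966 to 76123359. In shSrsf3 +PDGF-AA samples they were 30958966 to 37334733, and 1 shSrsf3 -PDGF-AA sample, at 37070136, lay within that range. *Srsf3* itself was at 206 ± 6.59 CPM in scramble and 162 ± 1.46 CPM in shSrsf3 cells without ligand (SD, n = 3 each), a log2 fold change of -0.34 (SE 0.0379, edgeR quasi-likelihood test, adjusted p = 7.95e-06), and with ligand the log2 fold change was -0.43 (SE 0.0380, adjusted p = 9.54e-07). Of 9 markers of palatal mesenchyme, 9 exceeded 1 CPM in both scramble groups and 8 in both shSrsf3 groups. *Col1a1*, *Col1a2* and *Vim* led them. At an adjusted p of 0.05 or less (edgeR), 1 was higher and 6 lower in shSrsf3 cells without ligand, and 1 and 5 with ligand. Of all genes, 22.2% were higher and 23.7% lower without ligand, and 20.3% and 20.7% with it. Named after their values were seen, *Pdgfra*, which encodes the receptor, *Osr2*, *Msx1* and *Pax9* had log2 fold changes of -0.53, -0.82, -0.93 and -0.76 without ligand. With ligand these were -0.36, -0.43, -1.10 and -0.70. Estimates were above 0 for 2 of the 9 in both conditions. The summed level of the list was 34930 to 36680 CPM in scramble and 31260 to 33350 CPM in shSrsf3 samples without ligand, and 35280 to 35860 and 31180 to 33460 CPM with ligand.

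Type IV collagen is the network-forming collagen of basement membranes, the sheets of matrix beneath epithelia and endothelia and around muscle, fat and nerve cells. Its chains assemble in the endoplasmic reticulum into triple-helical protomers, which join outside the cell through their ends. The chains of *Col4a1* and *Col4a2* form the protomer of nearly all basement membranes, those of *Col4a3*, *Col4a4* and *Col4a5* form the network of the kidney glomerulus, and those of *Col4a5* and *Col4a6* form a protomer of smooth muscle, skin and other epithelial basement membranes. The genes lie in pairs that are transcribed in opposite directions from neighbouring starts.

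On GRCm39, *Col4a1* (ENSMUSG00000031502.13) is on chr8:11248423-11362826, minus strand, and *Col4a2* (ENSMUSG00000031503.15) on chr8:11362471-11499287, plus strand. Starts here are those of the canonical transcript of each gene. By these starts the pair overlaps by 318 bases, and by the whole gene spans by 356. *Col4a4* (ENSMUSG00000067158.11, chr1:82426144-82564800, minus strand) and *Col4a3* (ENSMUSG00000079465.9, chr1:82564642-82699780, plus strand) overlap by 104 bases at their canonical starts and by 159 over the gene spans. *Col4a6* (ENSMUSG00000031273.17, chrX:139948399-140257072, minus strand) and *Col4a5* (ENSMUSG00000031274.18, chrX:140258354-140472231, plus strand) differ from the others in that their starts are 1281 bases apart. The 250 bases before each start of the X-linked pair are shown because these are the members whose levels differed most between the lines. They are written 5′ to 3′ on the strand of each gene, and capitals mark the motif CCAAT in *Col4a5* (chrX:140258104-140258353) and GGGCGG, read on the opposite strand, in *Col4a6* (chrX:140257073-140257322).
Col4a5: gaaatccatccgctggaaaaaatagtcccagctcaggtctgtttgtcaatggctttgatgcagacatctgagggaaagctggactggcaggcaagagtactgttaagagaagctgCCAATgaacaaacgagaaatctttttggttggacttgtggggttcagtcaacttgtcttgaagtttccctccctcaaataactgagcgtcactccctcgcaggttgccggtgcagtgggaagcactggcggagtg
Col4a6: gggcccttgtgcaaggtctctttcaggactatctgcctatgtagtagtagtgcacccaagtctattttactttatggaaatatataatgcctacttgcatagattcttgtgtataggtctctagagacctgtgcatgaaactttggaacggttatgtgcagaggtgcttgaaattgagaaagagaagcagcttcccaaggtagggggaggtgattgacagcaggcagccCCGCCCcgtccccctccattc

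The windows held 6 CG dinucleotides in *Col4a5* and 3 in *Col4a6*, against 31 in *Col4a1* and 18 in *Col4a2*. Among all promoters these counts lay at percentiles 41.3, 24.2, 96.7 and 79.7. Their GC content was 49.6% and 47.6%, against 74.4% and 65.6% in *Col4a1* and *Col4a2*. The CCAAT match lay 135 bases before the start of *Col4a5*, and the GGGCGG match 21 bases before that of *Col4a6*. In either orientation, CCAAT was present in 36.5% and GGGCGG in 36.3% of 21757 windows of the same length, so both are common. CCAAT was also found in *Col4a1* and *Col4a4*, and GGGCGG in *Col4a4*. TATAAA (11.9% of windows), TGANTCA (6.18%), CACGTG (6.26%) and CCCTCCCC (9.43%) were searched on both strands too and found in none of the 6 members. A match describes the letters and was not tested as a site.

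*Col4a1* and *Col4a2*, the chains of the common protomer, were abundant in every sample. Without ligand, *Col4a1* was at 1584, 1542 and 1523 CPM in scramble samples and at 1520, 1428 and 1581 CPM in shSrsf3 samples. With ligand it was at 1573, 1518 and 1530 CPM in scramble and at 1534, 1556 and 1596 CPM in shSrsf3 samples. The groups overlapped in both comparisons, and the log2 fold change between the lines was -0.04 (SE 0.0364) without and 0.02 (SE 0.0364) with ligand.

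*Col4a2* was at 1649, 1595 and 1515 CPM in scramble and at 1460, 1380 and 1547 CPM in shSrsf3 samples without ligand. With ligand it was at 1525, 1575 and 1532 CPM in scramble and at 1495, 1549 and 1534 CPM in shSrsf3 samples. These groups also overlapped. The log2 fold change between the lines was -0.12 (SE 0.0416) without ligand and -0.02 (SE 0.0416) with it. Leaving out the 3 libraries that had a lower mapping rate, it was -0.056 without ligand.

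*Col4a5*, which takes part in both of the less widespread protomers, was higher in all shSrsf3 samples. Without ligand it was at 90.02, 89.1 and 95.1 CPM in scramble and at 192.5, 184.5 and 200.5 CPM in shSrsf3 samples. With ligand it was at 96.8, 87.9 and 96.3 CPM in scramble and at 202.9, 197.5 and 210.6 CPM in shSrsf3 samples. No scramble sample reached any shSrsf3 sample, and the level in shSrsf3 cells was 2.11 times that in scramble cells without ligand (log2 fold change 1.07, SE 0.0478) and 2.17 times with ligand (1.12, SE 0.0478).

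*Col4a6*, the partner of *Col4a5* on the X chromosome, was the member with the widest gap. The expected counts were 18, 30 and 37 in scramble and 764, 598 and 361 in shSrsf3 samples without ligand, and 50, 35 and 48 against 360, 323 and 323 with ligand. In CPM these were 0.468, 0.690 and 0.613 in scramble and 9.89, 9.08 and 9.69 in shSrsf3 samples without ligand. With ligand they were 0.830, 0.620 and 0.742 in scramble and 9.62, 10.0 and 10.4 in shSrsf3 samples. The 6 shSrsf3 samples were thus close to each other and far above the 6 scramble samples, in which the gene was counted but low. The level was 16.0 times higher without ligand (log2 fold change 4.00, SE 0.122) and 13.6 times higher with ligand (3.77, SE 0.115).

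**Figure D1:**
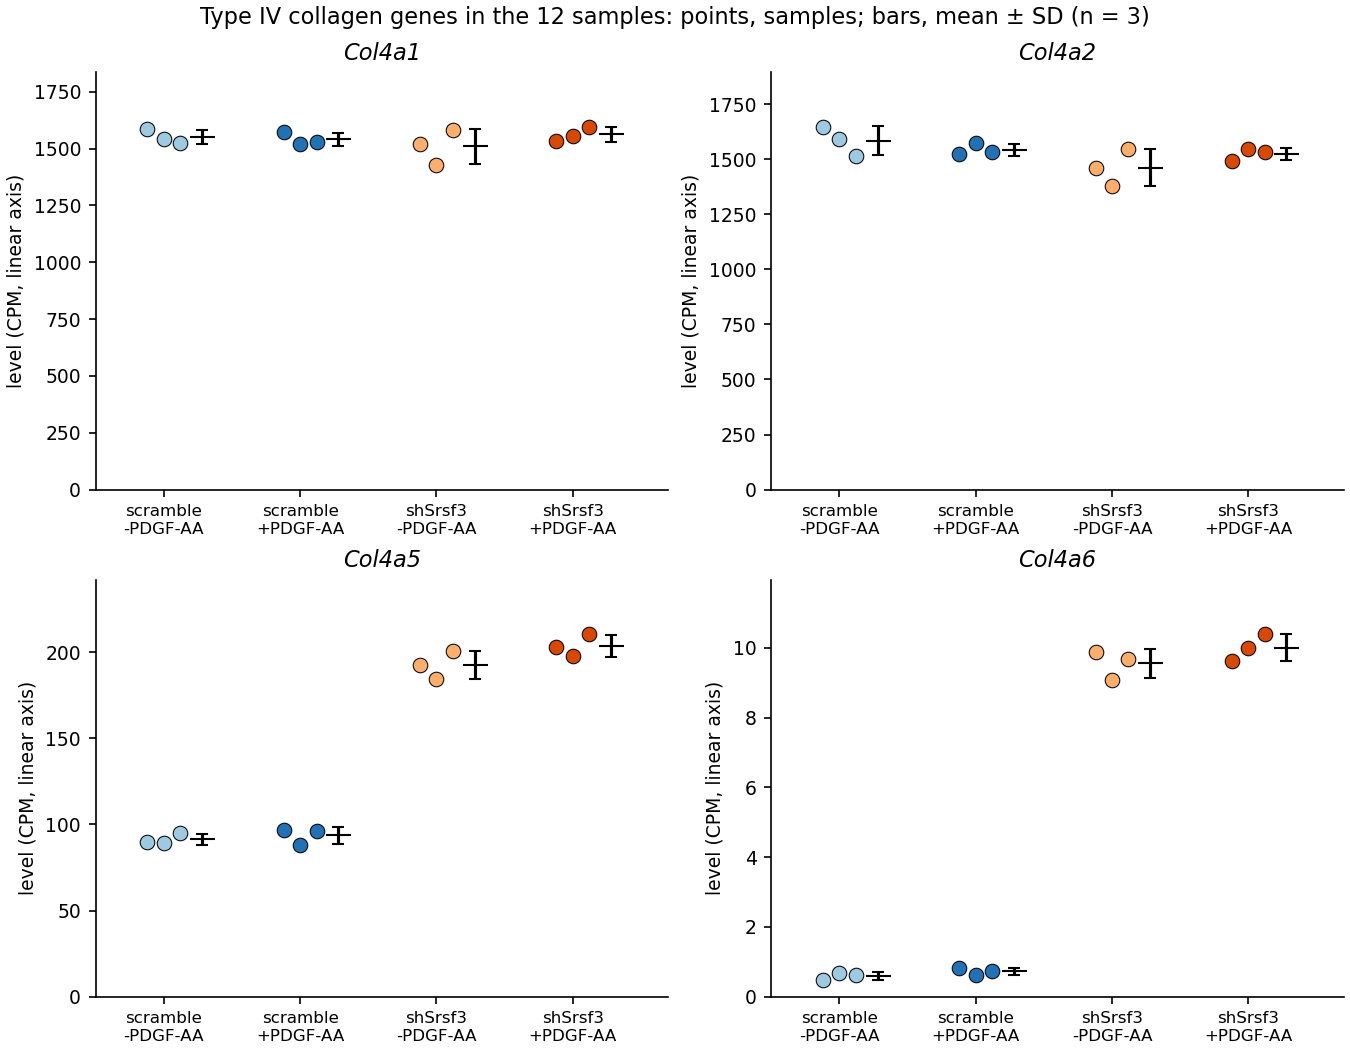
Level in CPM (linear axis from 0) of the 4 members that passed the low-count filter, by group. Each point is a sample and each bar the mean ± SD of 3 samples; *Col4a1* and *Col4a2* overlap between the lines, while for *Col4a6* the shSrsf3 samples lie between 9.08 and 10.4 CPM and the scramble samples between 0.468 and 0.830 CPM.

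Of the 4 members tested, 2 were at least 2-fold higher in shSrsf3 cells in both conditions. Among all 15037 genes tested, 2.99% were DE and at least 2-fold higher without ligand and 2.85% with ligand, and groups did not overlap, with shSrsf3 samples higher, in 26.2% and 25.5%. DE stands for an adjusted p of 0.05 or less and at least a 2-fold change. Since the contrast chose the members, nothing is read from these counts. By log2 fold change, *Col4a6* ranked 5 from the highest among the 12262 tested genes with a mean count of at least 50 without ligand, between *Pagr1a* (4.69) and *Gm9843* (3.51), and 3 with ligand, between *Gm9843* (9.15) and *Rab3b* (3.09). *Col4a5* ranked 177 and 145. Among all 15037 tested genes, which include scarce ones, *Col4a6* ranked 14 without and 27 with ligand, and *Col4a5* 476 and 422.

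*Col4a3* and *Col4a4*, the remaining chains of the kidney network, had few counts and did not pass the low-count filter. *Col4a3* had between 0 and 3 counts in any library, and 2 counts in all in scramble and 5 in shSrsf3 samples without ligand, and 1 and 4 with ligand. The summed counts corresponded to 0.0141 CPM (95% exact Poisson interval 0.0017 to 0.0508) and 0.0277 CPM (0.0090 to 0.0647) without ligand, and to 0.00551 CPM (0.00014 to 0.0307) and 0.0397 CPM (0.0108 to 0.102) with ligand. *Col4a4* had between 3 and 10 counts per library, or 0.0913 CPM (0.0486 to 0.156) in scramble and 0.116 CPM (0.0721 to 0.178) in shSrsf3 samples without ligand, and 0.0827 CPM (0.0463 to 0.136) and 0.129 CPM (0.0687 to 0.221) with ligand. These intervals cover counting error only, and they overlap between the lines within each gene. With ligand, the 3 shSrsf3 samples were above the 3 scramble samples for *Col4a3* (0.0267, 0.0310 and 0.0644 CPM against 0, 0 and 0.0155 CPM) and for *Col4a4* (0.107, 0.155 and 0.129 CPM against 0.0830, 0.0709 and 0.0927 CPM), while without ligand the samples overlapped. Every one of these values rests on 6 counts or fewer, and no test was made of the difference between the lines. The counts with ligand were 1, 1 and 2 against 0, 0 and 1 for *Col4a3*. For *Col4a4* they were 4, 5 and 4 against 5, 4 and 6, so the counts themselves overlapped. Column totals were 30958966 to 37334733 in these shSrsf3 and 57313132 to 65707963 in these scramble samples. Such a separation in CPM held for 25.5% of all genes tested, so nothing is read from it. A level of 3 counts was worth 0.0388 to 0.0966 CPM, depending on the library.

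Levels of different chains were compared per length, as CPM per kb of the median length of the protein-coding transcripts. Without ligand, scramble cells held 240 ± 4.86 of *Col4a1* and 239 ± 10.2 of *Col4a2* (CPM per kb, SD, n = 3), 22.7 ± 0.796 of *Col4a5* and 0.0888 ± 0.0170 of *Col4a6*. In shSrsf3 cells the same levels were 233 ± 11.8, 220 ± 12.6, 47.8 ± 1.99 and 1.44 ± 0.0636. *Col4a1* and *Col4a2* did not differ beyond their spread in scramble cells, and they were followed in order by *Col4a5*, *Col4a6*, *Col4a4* and *Col4a3*. Several annotated transcripts of *Col4a5* are short, which raises its level per length: with the longest transcript it was 13.9 in scramble and 29.3 in shSrsf3 cells, and the order of the chains was the same.

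**Figure D2:**
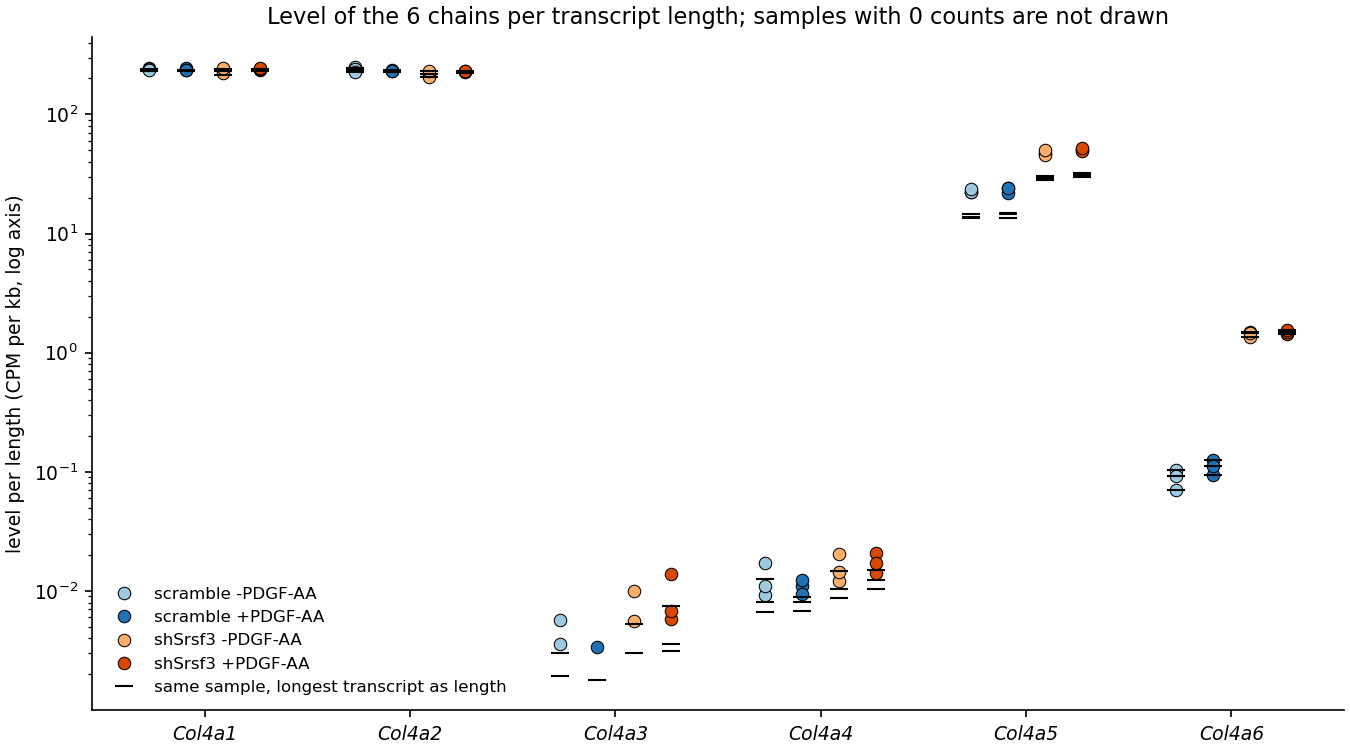
Level per length (CPM per kb, log axis) of the 6 members, 1 point per sample, coloured by group; samples with 0 counts are not drawn. Black bars give the same samples with the longest transcript as the length, which lowers *Col4a5* from 22.7 to 13.9 CPM per kb in scramble -PDGF-AA samples.

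Within a sample, the chains of the common protomer stayed near an equal ratio. The level per length of *Col4a1* was 1.01 ± 0.0249 times that of *Col4a2* in scramble and 1.06 ± 0.0103 times in shSrsf3 samples without ligand, and 1.03 ± 0.0347 and 1.05 ± 0.0186 times with ligand (SD, n = 3). For every 100 units of *Col4a5* there were 0.391 ± 0.0771 units of *Col4a6* in scramble and 3.01 ± 0.0951 in shSrsf3 samples without ligand, and 0.471 ± 0.0463 and 2.98 ± 0.0992 with ligand. With the longest transcript as the length these were 0.638 ± 0.126 and 4.90 ± 0.155 without ligand, and 0.768 ± 0.0755 and 4.85 ± 0.162 with ligand. *Col4a6* therefore remained far below its partner in both lines. *Col4a5* made up 4.54 ± 0.274% of the summed level of the family in scramble and 9.52 ± 0.107% in shSrsf3 samples without ligand, and *Col4a6* 0.0178 ± 0.00368% and 0.286 ± 0.00970%. With the longest transcript the share of *Col4a5* was 2.88 ± 0.177% and 6.17 ± 0.0720%. The summed level itself was 501 ± 14.2 and 502 ± 26.4 CPM per kb without ligand, where the lines overlapped, and 494 ± 2.81 and 523 ± 8.74 CPM per kb with ligand, where they did not (490.9 to 496.5 in scramble and 513.7 to 531.1 in shSrsf3 samples).

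Stimulation for 1 hr did not move any of the 4 members past the test. In scramble cells, 0 of 4 were called by the edgeR quasi-likelihood test (adjusted p of 0.05 or less), against 4.04% of all genes tested, and in shSrsf3 cells 0 of 4, against 0.565%. An unadjusted p under 0.05 was found for 0 of 4 in either line, against 17.6% of all genes in scramble and 9.44% in shSrsf3 cells, and DESeq2 also called 0. The largest estimate was that of *Col4a6* in scramble cells, with a log2 fold change of 0.30 (SE 0.160, 95% interval -0.05 to 0.64, adjusted p = 0.439, edgeR), where 2 of 3 stimulated samples exceeded every unstimulated one and the groups overlapped. In shSrsf3 cells, where the gene was counted 323 to 764 times per library, its log2 fold change was 0.07 (SE 0.0893, interval -0.13 to 0.26, adjusted p = 0.902).

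The intervals of the more abundant members were narrower. In scramble cells the log2 fold change with ligand was -0.01 (interval -0.09 to 0.07) for *Col4a1*, -0.04 (-0.13 to 0.05) for *Col4a2* and 0.04 (-0.07 to 0.14) for *Col4a5*, with adjusted p of 0.938, 0.674 and 0.759 (edgeR). In shSrsf3 cells it was 0.05 (-0.03 to 0.13), 0.06 (-0.03 to 0.15) and 0.08 (-0.02 to 0.18), with adjusted p of 0.748, 0.703 and 0.651. The interaction, the difference between the ligand effects in the lines, was -0.23 (interval -0.63 to 0.16, adjusted p = 0.882) for *Col4a6* and 0.06, 0.10 and 0.05 for *Col4a1*, *Col4a2* and *Col4a5* (adjusted p = 0.884, 0.874 and 0.918). It was called in 0 of 4 members and in 0.0133% of all genes, and 0 of 4 members had an unadjusted p under 0.05, against 5.54% of all genes.

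**Figure D3:**
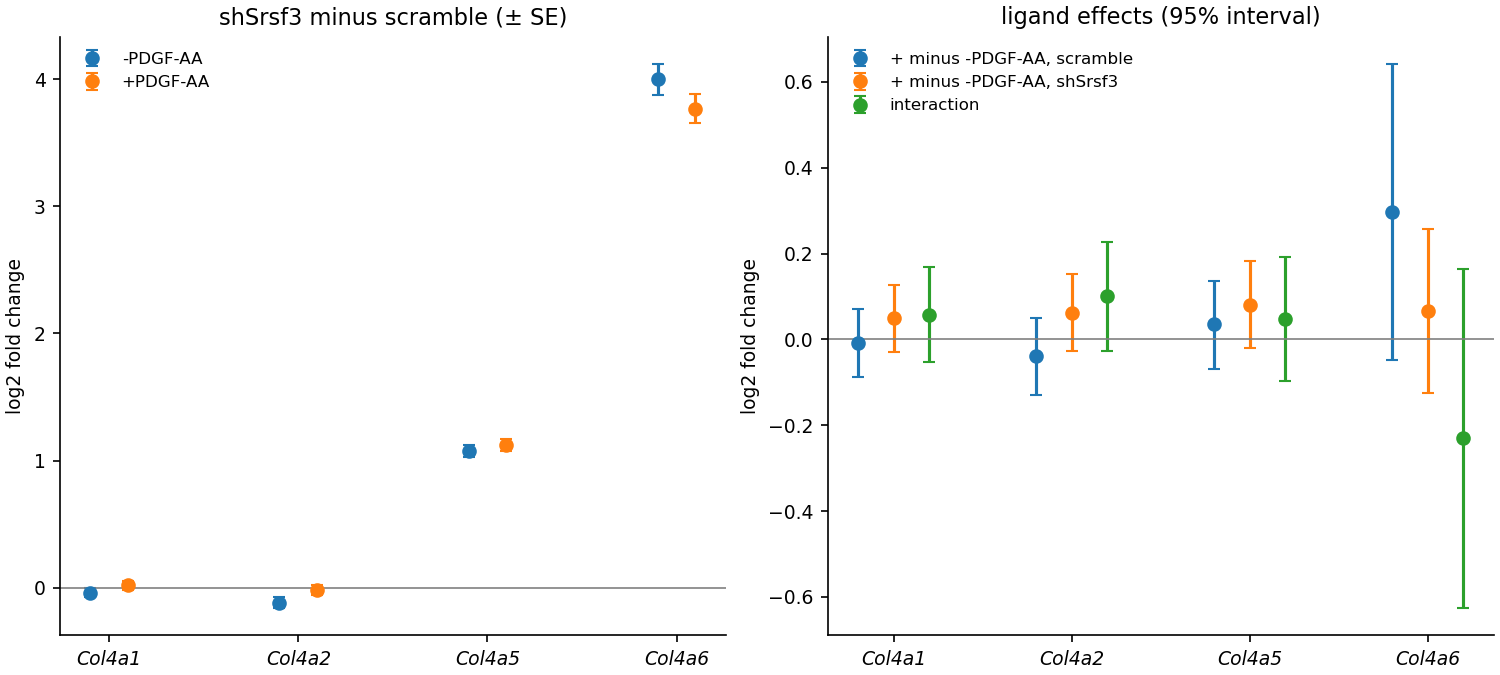
Left, log2 fold change of shSrsf3 against scramble cells (± SE), given as a description; right, log2 fold change with ligand in each line and the interaction, with 95% intervals, all of which include 0. On the left, *Col4a6* lies at 4.00 and 3.77 and *Col4a5* at 1.07 and 1.12, while *Col4a1* and *Col4a2* lie between -0.12 and 0.02.

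The profile of each member over the 12 samples was set against those of 12261 other genes by the root mean square difference of centred log2 levels. The nearest to *Col4a6* were *Adam33*, a membrane-bound metalloproteinase (0.31), *Rab3b*, a GTPase of secretory vesicles (0.38), *Prss35* (0.49), *Hvcn1*, a proton channel (0.52), and *Cftr*, a chloride channel (0.53). The nearest to *Col4a5* were *Scarb1*, the receptor for high-density lipoprotein (0.04), *Epha1*, an ephrin receptor (0.05), *Eps8l2* (0.06), *Aqp1*, a water channel (0.07), and *Sema3e*, a semaphorin (0.07). For *Col4a1* they were *Gjc1*, *Ptprk*, *Acsl5*, *Adam15* and *Zmpste24*, all at 0.03. *Col4a2* was 60 in the order of likeness to *Col4a1*, at 0.04, against a median of 0.13 over all genes. *Col4a5* was 96 in the order of likeness to *Col4a6*, at 1.03 against a median of 1.59, but *Col4a6* was 12057 in the order of likeness to *Col4a5*, at the same 1.03 against a median of 0.57. Profiles were centred but not scaled, so a distance reflects the size of a change as well as its direction. *Col4a5* and *Col4a6* were both higher in all shSrsf3 samples, by different amounts. All genes share the same libraries, and these distances are descriptive.

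Other genes of the basement membrane pathway were taken from 4 lists, of which 69 of 79 genes were tested. Between the lines, 2 were DE and higher and 2 DE and lower in shSrsf3 cells without ligand, and 1 and 3 with ligand, so 4 in each condition. Of all genes, 5.75% were DE without ligand (2.99% higher and 2.76% lower) and 5.42% with ligand (2.85% higher and 2.57% lower). Without a minimum fold change, 46 genes passed the test without ligand, 21 higher and 25 lower, and 44 with ligand, 20 higher and 24 lower. Of all genes, 45.9% passed without ligand (22.2% higher and 23.7% lower) and 41.0% with ligand (20.3% higher and 20.7% lower). The median log2 fold change of the lists together was -0.03 and -0.02, that of all genes -0.02 and -0.01.

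The list of chain synthesis and crosslinking holds the hydroxylases, chaperones, export factors and crosslinking enzymes that a collagen chain passes through. Of its 26 tested genes none was DE in either condition, while 5 were higher and 10 lower without ligand at an adjusted p of 0.05 or less (17 at an unadjusted p under 0.05), and 6 and 10 with ligand. The following were chosen after their values were seen. *P3h2*, a prolyl 3-hydroxylase that acts on type IV collagen, was higher by 0.83 on the log2 scale (adjusted p = 2.99e-08), and *Plod2*, a lysyl hydroxylase, by 0.36 (adjusted p = 6.41e-06). *Pxdn*, the peroxidasin that crosslinks the type IV network, had a log2 fold change of -0.28 (adjusted p = 0.000567), and *Serpinh1*, a collagen chaperone, of -0.16 (adjusted p = 0.00234), all by edgeR without ligand. Falls larger than that of *Pxdn* were those of *Sparc* (-0.48), *P3h4* (-0.46), *P4hb* (-0.37) and *Lox* (-0.37).

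The basement membrane partners, laminins, nidogens, proteoglycans and proteins of the Fraser complex, had 3 DE genes of 24 in each condition. *Lama1*, a laminin alpha chain, was at 1.81 ± 0.338 CPM in scramble and 0.562 ± 0.106 CPM in shSrsf3 cells without ligand (SD, n = 3; log2 fold change -1.68, SE 0.195, adjusted p = 1.16e-05), and fell by 2.28 on the log2 scale with ligand (SE 0.211, adjusted p = 1.44e-06). *Lama3*, the alpha chain of epithelial laminin, was low throughout, at 0.0811 ± 0.0255 CPM and 0.366 ± 0.110 CPM without ligand, and rose by 2.09 (SE 0.397, adjusted p = 0.000772) and 1.31 (SE 0.359, adjusted p = 0.0100). With ligand *Lama3* was at 0.160 ± 0.0378 CPM in scramble and 0.401 ± 0.0884 CPM in shSrsf3 cells. At these levels it passed the low-count filter mainly through shSrsf3 samples, where it was higher, so nothing is read from its test. It is the 1 gene of the list counted as DE and higher in each condition, and the 1 counted so over all lists with ligand. *Frem1*, of the Fraser complex, fell by 1.57 (SE 0.246, adjusted p = 0.000171) and 1.77 (SE 0.261, adjusted p = 0.000107), from 1.37 ± 0.149 CPM to 0.457 ± 0.0499 CPM without ligand. With no fold minimum, 11 genes of the list were higher and 8 lower without ligand, and 10 and 8 with ligand.

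Among 10 receptors of collagen, 3 were higher and 4 lower in shSrsf3 cells without ligand, and 3 and 5 with ligand. *Itga2*, an integrin collagen receptor subunit, rose from 0.652 ± 0.280 CPM to 1.67 ± 0.170 CPM without ligand (log2 fold change 1.32, SE 0.251, adjusted p = 0.000764), and by 0.85 with ligand (SE 0.249, adjusted p = 0.0139), under the 2-fold limit. *Adgrg6*, an adhesion receptor that binds type IV collagen, was at 119 ± 3.54 CPM and 60.3 ± 0.972 CPM without ligand, and fell by 0.99 (SE 0.0369, adjusted p = 3.19e-10) and, with ligand, by 1.04 (SE 0.0371, adjusted p = 2.25e-10). Of the 15 genes for degradation and its inhibitors 9 were tested, with none DE. Without ligand 2 of them were higher and 3 lower, and with ligand 1 and 1.

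**Figure D4:**
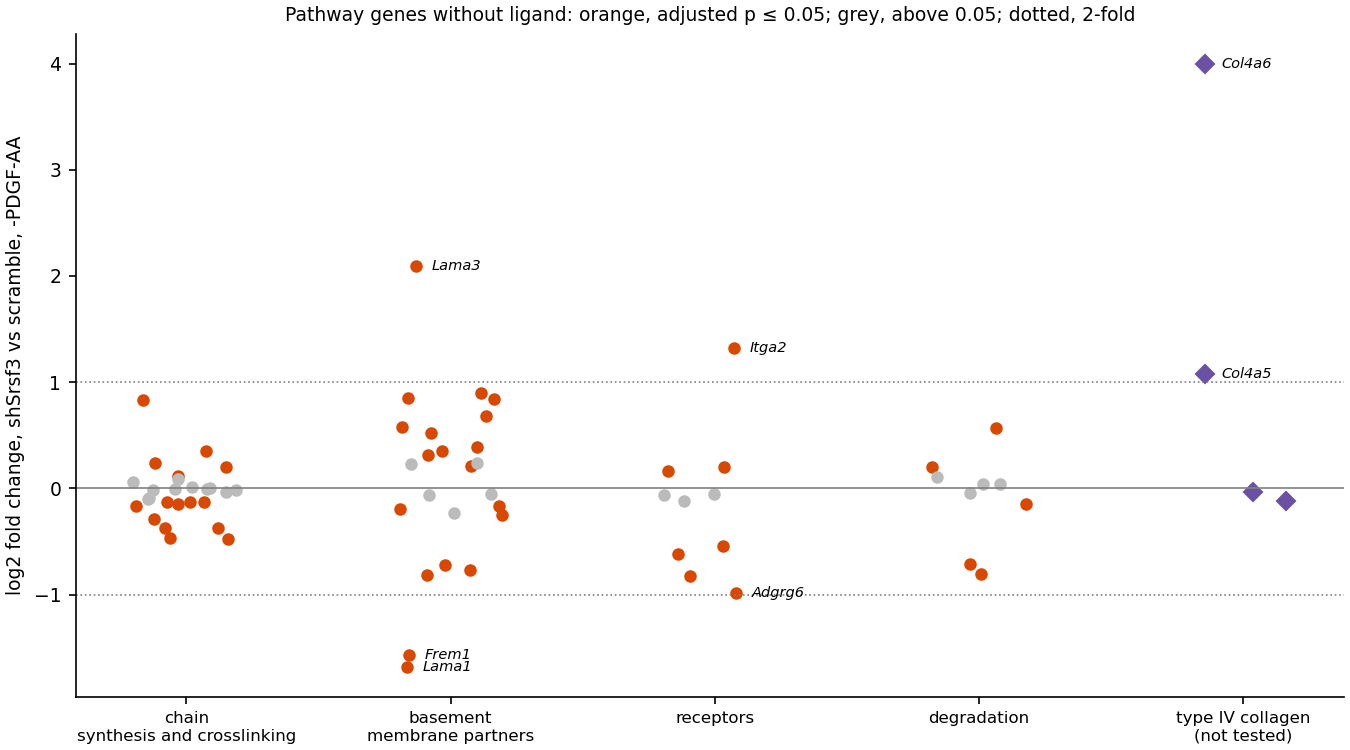
Log2 fold change of shSrsf3 against scramble cells without ligand for each tested gene of 4 pathway lists and, as diamonds, for the type IV collagen genes, which were not tested here. Orange points have an adjusted p of 0.05 or less, grey points do not, and dotted lines mark a 2-fold change; *Lama3* and *Itga2* lie above the upper line and *Lama1* and *Frem1* below the lower one.

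With ligand, 3 of the 69 pathway genes passed the test in scramble cells and 1 in shSrsf3 cells, against 4.04% and 0.565% of all genes. In scramble cells, *Itgb3*, an integrin subunit, fell by 0.22 on the log2 scale (SE 0.0451, adjusted p = 0.0152, edgeR), *Adgrg6* rose by 0.16 (SE 0.0362, adjusted p = 0.0240) and *Timp1*, an inhibitor of matrix metalloproteinases, by 0.18 (SE 0.0465, adjusted p = 0.0473). In shSrsf3 cells *Itgb3* fell by 0.29 (SE 0.0483, adjusted p = 0.0117). The number called in scramble cells depended on the libraries: leaving out replicate 3 of the unstimulated scramble samples gave 9 calls and leaving out their replicate 2 gave 1, while leaving out replicate 1 or 3 of the stimulated scramble samples gave 0. The call in shSrsf3 cells was lost when any 1 of the 6 samples compared was left out. The interaction was called in none of the 69 (3 at an unadjusted p under 0.05), and these genes were chosen after their values were seen.

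Genes within 1 Mb of each pair were read from the annotation. Around *Col4a5* and *Col4a6*, 16 protein-coding genes were annotated and 11 tested, of which 1 was higher and 3 lower in shSrsf3 cells without ligand, and 1 and 1 with ligand. Of all genes, 22.2% were higher and 23.7% lower without ligand, and 20.3% and 20.7% with ligand, so nothing is read from these counts. The higher gene, named after its values were seen, was *Mid2*, 279.9 kb away (log2 fold change 0.23, adjusted p = 0.000469, and 0.14, adjusted p = 0.0125, edgeR). On one side the nearest was *Atg4a*, an autophagy protease, 1.1 kb from the pair, with a log2 fold change of -0.15 (SE 0.0574, adjusted p = 0.0413) without and -0.13 (adjusted p = 0.103) with ligand. On the other it was *Irs4*, an insulin receptor substrate, 21.8 kb away and at 0.268 ± 0.123 CPM in scramble and 0.0777 ± 0.0250 CPM in shSrsf3 cells without ligand, with a log2 fold change of -1.71 (SE 0.611, adjusted p = 0.0345) without and -1.56 (SE 0.614, adjusted p = 0.0577) with ligand. *Frmpd3*, 612.2 kb away, was also scarce and fell by 1.89 (adjusted p = 0.00769) and 1.64 (adjusted p = 0.0250). *Irs4* and *Frmpd3* passed the low-count filter mainly through scramble samples, where they were higher, so nothing is read from their tests. Nothing is read from the direction of *Atg4a* and *Irs4*, the nearest tested neighbours.

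Around *Col4a1* and *Col4a2*, 7 of 11 genes were tested and 0 were DE, against 5.75% of all genes without and 5.42% with ligand. The nearest were *Rab20*, at 4.1 kb (log2 fold change -0.04 without ligand, adjusted p = 0.884), and *Irs2*, at 188.9 kb (-0.58, adjusted p = 2.65e-06). Around *Col4a3* and *Col4a4*, 6 of 21 were tested, and *Ccl20*, a chemokine 394.7 kb away, was DE without ligand (1.54, SE 0.561, adjusted p = 0.0382) but not with ligand (1.14, adjusted p = 0.0773). Without ligand *Ccl20* was at 0.116 ± 0.0772 CPM in scramble and 0.355 ± 0.0749 CPM in shSrsf3 cells. It may have passed the low-count filter through shSrsf3 samples, where it was higher, so nothing is read from its test. *Rhbdd1* and *Mff*, at 2.4 and 2.8 kb from that pair, had log2 fold changes of -0.40 and -0.17 without ligand (adjusted p = 6.63e-06 and 0.00331, edgeR). With ligand these were -0.36 and -0.10 (adjusted p = 1.97e-05 and 0.0762), so *Mff* did not pass there.

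**Figure D5:**
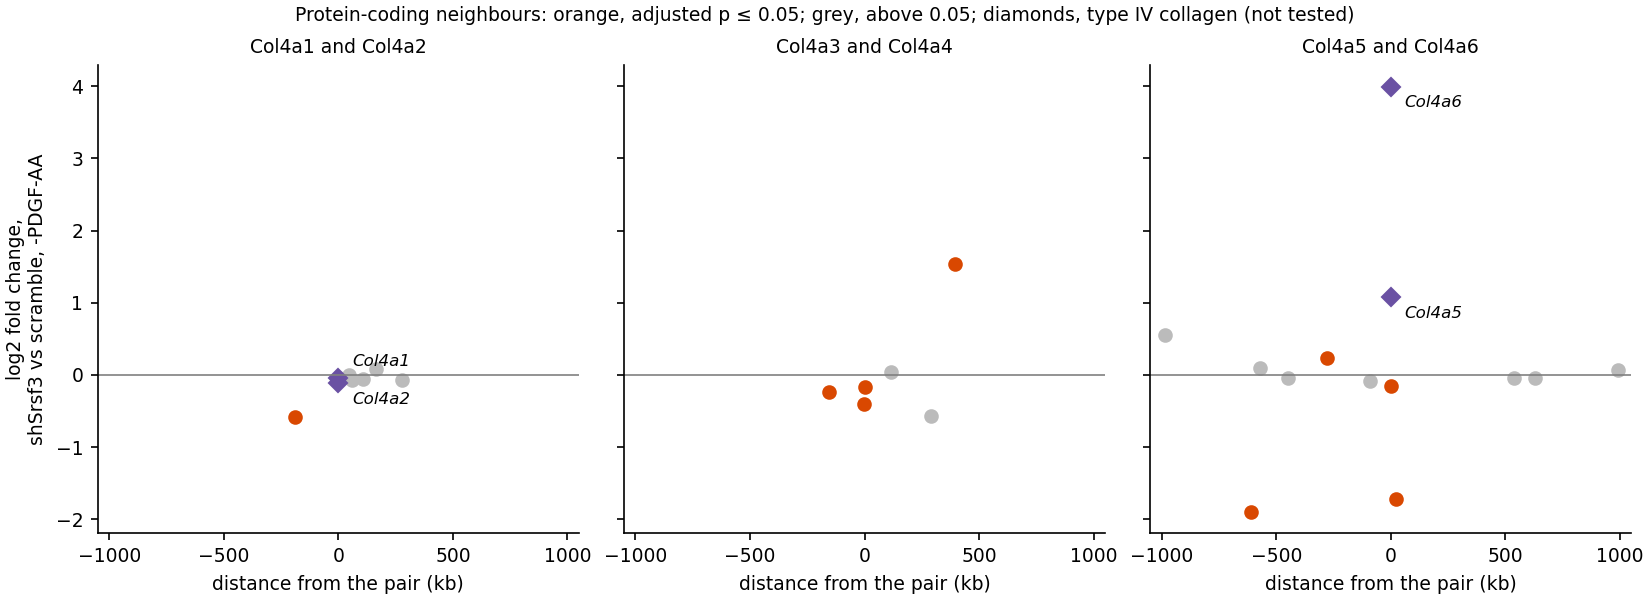
Log2 fold change of shSrsf3 against scramble cells without ligand for tested protein-coding genes within 1 Mb of each pair, by distance from the pair in kb (negative, lower coordinates). Orange points have an adjusted p of 0.05 or less and diamonds are type IV collagen genes, not tested. *Irs4*, 21.8 kb away on the side of higher coordinates, lies at -1.71. *Frmpd3*, 612.2 kb away on the side of lower coordinates, lies at -1.89, and *Col4a5* and *Col4a6* at 1.07 and 4.00.

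Whether reads were mixed between members and other genes was not tested, and the sequence they share is described. Transcripts of GENCODE M39 were read on their own strand only, so overlaps on opposite strands and intron sequence were not counted. Among all sequences of 31 bases in their transcripts, the share also found in another gene was 0 for *Col4a2*, *Col4a5* and *Col4a6*, 0.334% for *Col4a1*, 0.010% for *Col4a3* and 0.079% for *Col4a4*. Exons of *Col4a1* and *Col4a2* overlap by 311 bases on opposite strands, and the libraries were stranded. The pseudogenes that lie within *Col4a5* and *Col4a6* had at most 4 counts in any library.

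Markers of cell types that deposit these chains were listed as well. Epithelial markers summed to 4.81 to 6.25 CPM in scramble and 3.34 to 3.599 CPM in shSrsf3 samples without ligand, and to 4.98 to 6.19 and 2.94 to 4.28 CPM with ligand, over 10 genes of which 2 exceeded 1 CPM in scramble groups (*Cdh1* and *Trp63*) and 1 in shSrsf3 groups (*Trp63*), and *Esrp1* was at 0. Endothelial markers summed to 33.5 to 36.4 CPM in scramble and 22.7 to 23.5 CPM in shSrsf3 samples without ligand, and to 33.9 to 37.6 and 19.5 to 22.7 CPM with ligand, with *Cldn5* at 0. Most of that sum was *Tek*, at 30.6 and 20.0 CPM without ligand. *Erg* was at 3.30 and 0.441 CPM, *Cdh5* at 0.274 and 1.37 CPM and *Kdr* at 0.251 and 0.623 CPM. Of the 7 endothelial markers 5 were tested, and 2 passed as higher and 2 as lower in shSrsf3 cells in both conditions. Of all genes tested, 22.2% passed as higher and 23.7% as lower without ligand, and 20.3% and 20.7% with it. Smooth muscle markers, 6 of 7 above 1 CPM, summed to 8070 to 9192 CPM and 7750 to 8170 CPM without ligand, and to 8360 to 8587 and 7465 to 7479 CPM with ligand, led by *Acta2*, *Tagln* and *Smtn*. Most of that sum was *Acta2*, which fell by 0.31 on the log2 scale without ligand (adjusted p = 0.000104, edgeR). Of the 7 smooth muscle markers 4 passed the test as higher and 2 as lower in shSrsf3 cells in both conditions. Of all genes, 22.2% passed as higher and 23.7% as lower without ligand, and 20.3% and 20.7% with ligand. Without ligand *Myh11* rose by 1.10 (adjusted p = 1.74e-06), *Cnn1* by 0.96 (adjusted p = 8.92e-09), *Des* by 1.21 (adjusted p = 0.0248) and *Tagln* by 0.40 (adjusted p = 2.94e-07), *Mylk* fell by 0.69 (adjusted p = 2.99e-06), and *Smtn* had a log2 fold change of 0.12 (adjusted p = 0.0523). *Des* was at 0.148 CPM in scramble and 0.348 CPM in shSrsf3 cells. It may have passed the low-count filter through shSrsf3 samples, where it was higher, so nothing is read from its test. Podocyte markers summed to 126 to 130 CPM and 107 to 116 CPM without ligand and to 109 to 117 and 104 to 114 CPM with ligand, nearly all from *Synpo*. Schwann cell and neural crest markers summed to at most 3.33 CPM, with *Sox10* at 0, and blood markers to at most 1.68 CPM, with *Hbb-bt* and *Hba-a1* at 0. The part of other cell types in the levels of *Col4a5* and *Col4a6* was not tested.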

How the data were processed

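The type IV collagen genes and the lists of pathway genes and markers were chosen with earlier results of these data known. The authors trimmed reads with BBDuk, quantified them with Salmon (1.4.0) on the GRCm39 transcripts of GENCODE M26, and used tximport to add up the transcripts of a gene symbol, whose version and count scaling are not given in the sources used here. The deposited values are expected counts, estimated read pairs per gene with no scaling to library size. The methods describe stranded libraries, RNA isolated simultaneously, and biological replicates. No column of another sample was present. The 12 samples were assigned by their labels.

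After rounding of the expected counts to whole numbers, genes were filtered (filterByExpr, minimum count 10) and normalized by TMM in edgeR 4.0.16, and 15037 of 51490 genes were tested with the quasi-likelihood test in 1 model of 4 group means, with Benjamini-Hochberg adjustment over all of them. CPM used the TMM library sizes. A gene passes the filter when as many samples as 1 group holds have enough counts, so it can pass through 1 line alone. *Lama3*, *Irs4* and *Frmpd3* passed mainly through the line where they were higher, and *Ccl20* and *Des* may have done so. Nothing is read from the tests of these scarce genes between the lines. DE meant an adjusted p of 0.05 or less and at least a 2-fold change, and ligand effects and the interaction were called by adjusted p alone. The procedure was tested on simulated data with known rises in shSrsf3 cells only. No ligand effect or interaction was set there, so the recovery of such effects was not checked. Intervals are 95% from the standard error, and the Poisson intervals cover counting error only. Profiles were log2(CPM + 0.5).

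Named genes were the members, *Srsf3*, the 5 genes with a mean count of at least 50 nearest in profile to *Col4a6*, *Col4a5* and *Col4a1*, and those ranked next to *Col4a6*. Further named were up to 6 DE genes with the largest change per list, DE and nearest neighbours within 1 Mb, and up to 3 markers above 1 CPM per cell type. Others are said to be chosen after their values were seen, apart from markers at 0 and *Erg*, *Cdh5*, *Kdr*, *Myh11*, *Cnn1*, *Des* and *Mylk*, also chosen so. Coordinates and sequences came from GRCm39, the build the authors used, with the more recent annotation GENCODE M39. Alternatives were DESeq2 size factors, library totals alone, the DESeq2 test (1.42.0), other filters, each sample left out, the 3 libraries with a lower mapping rate left out, a replicate block, the compared groups alone, other call rules and the longest transcript. R 4.3.3, Python 3.11, pandas, numpy, scipy, pysam and matplotlib were used.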

Additional observations from a re-analysis of the deposited data

How the results depend on the processing

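No member was called for ligand or interaction under any alternative, and the lowest adjusted p among them was 0.264, for *Col4a6* in scramble cells. Without the 3 libraries with a lower mapping rate, which leaves 1 scramble -PDGF-AA sample whose spread is taken from the other groups, the log2 fold change between the lines without ligand was -0.056 for *Col4a2* and 1.01 for *Col4a5*. With each sample left out in turn, that of *Col4a6* without ligand ranged from 3.88 to 4.10. The count of pathway genes differing between the lines was 46 without and 44 with ligand when no minimum fold change was set. The count of pathway genes called with ligand in scramble cells was 11 without the low-count filter and 0 with the compared groups only, it was 0 in both lines with a 2-fold minimum, and it ranged from 0 to 9 in scramble cells and from 0 to 1 in shSrsf3 cells with each sample left out. The cause was not tested. With the longest transcript, the level per length in scramble -PDGF-AA samples went from 0.00309 to 0.00166 CPM per kb for *Col4a3*, from 0.0125 to 0.00908 for *Col4a4* and from 22.7 to 13.9 for *Col4a5*.

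Same-numbered samples of different groups had correlations of -0.27 to 0.40 (median 0.009), against -0.57 to 0.45 (median -0.004) for other numbers. Some scramble samples did deviate together. Between the scramble groups, libraries with a lower mapping rate correlated at 0.34 and 0.40, and the other libraries at 0.45 and 0.32. Across these 2 kinds of scramble library the correlations were -0.57 to -0.19. The cause was not tested. With the replicate block, the log2 fold change of *Col4a6* was 4.00 and 3.77, 0 members were called for ligand or interaction, and 2 pathway genes in place of 3 were called with ligand in scramble cells.

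Low counts limit *Col4a3*, *Col4a4* and, in scramble cells, *Col4a6*. Each shRNA was 1 line.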
